A study of Mus musculus with 6 samples.

Results

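Genes of the cell cycle were followed in splenic regulatory T cells (Tregs), CD4 T cells that hold immune responses in check. The set holds 48 genes, of 55573 genes listed, chosen by name for their roles. No measured value entered the rule, but earlier results of these data were known when the set was chosen. It has 10 genes of the G1 engine (cyclins, cyclin-dependent kinases and E2F factors) and 5 inhibitors of those kinases. A further 11 genes are of DNA replication and 22 of G2 and mitosis. All 48 were found by symbol in the annotation and all 48 passed the filter on low counts, which 13347 genes passed. RNA was sequenced from Tregs sorted from the spleen of bone marrow chimeras that the labels call bi-parental, that is, hosts whose blood is rebuilt by transplanted marrow of more than one donor. There were 3 libraries of Nfkb2-/- Tregs, a knockout of the gene of the NF-kB precursor p100, and 3 libraries of wild type Tregs. Cells of both genotypes were rested in medium after sorting and received no stimulus. The labels call the 3 libraries of a genotype biological repeats. Of the animals' age and sex, the Nfkb2-/- allele and the hosts, nothing is given in the sources used here.

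A dividing cell passes through G1, S phase, G2 and mitosis. In G1, D-type cyclins with CDK4 or CDK6, and E-type cyclins with CDK2, inactivate the retinoblastoma protein and so free the E2F factors, which turn on the genes of DNA replication. Inhibitors of the INK4 family (Cdkn2a, Cdkn2c, Cdkn2d) bind CDK4 and CDK6, and those of the CIP/KIP family (Cdkn1a, Cdkn1b) bind cyclin-CDK complexes more widely. Genes of mitosis are turned on later, through promoter elements named CHR and CCAAT, and a part of the Treg pool in the spleen divides in the unperturbed animal. In bulk RNA, fewer dividing cells and less RNA per cell cannot be told apart, and this holds for every value given here.

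Library totals ran from 12005273 to 14359439 counts in Nfkb2-/- Tregs and from 12499343 to 17278521 in wild type. Levels are in CPM, counts scaled to the TMM-adjusted library size. Nfkb2 itself was lower in Nfkb2-/- Tregs without being absent, averaging 288 ± 31.3 CPM there and 553 ± 6.99 CPM in wild type Tregs (SD, n = 3 each). The 7 Treg markers, Foxp3 and Il2ra among them, summed to 4036 to 4478 CPM in Nfkb2-/- Tregs and to 3236 to 4907 CPM in wild type Tregs. Xist, the X-linked silencing RNA, was at 592 to 883 CPM in Nfkb2-/- Tregs and at 1.94 to 16.5 CPM in wild type Tregs. Summed over 4 Y-linked genes, Nfkb2-/- replicates 1, 2 and 3 held 40.0, 138 and 275 CPM, and wild type libraries 465 to 498 CPM. The Nfkb2-/- libraries thus held Xist and Y-linked RNA together, the latter in unequal amounts. What share of their cells was of which sex was not tested. The sex of the cells and the genotype therefore cannot be told apart. Wild type replicate 1 stood apart: across genes, which are not independent replicates, its log2 CPM correlated with each other library at 0.941 to 0.955, while pairs without it reached 0.968 to 0.991.

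Promoters of the mitotic genes were alike in their motifs. RefSeq windows (GRCm38.p6), each 300 bases long from 250 before to 50 after a gene's start, were found for 39 of the 48 genes, in 45 windows. The CHR element was searched as TTTGAA or TTCGAA, the CCAAT box as CCAAT and the E2F site as TTTCGCGC, TTTGGCGC, TTTCCCGC or TTTGCCGC, all on both strands. TTCGAA reads the same on both strands, and E2F matches on the 2 strands can overlap. Of 17 mitotic windows, 13 held a CHR (76.5%) and the same 13 also a CCAAT box, a pairing found in 7.52% of all 32851 promoter windows. The E2F site was in 4 of 11 replication windows (36.4%), those of Mcm3, Mcm5, Mcm6 and Mcm7, and in 2.26% of all windows. A match is a description of the letters and not a shown binding site. Printed 5′ to 3′ are windows of 4 genes of mitosis and replication that hold motifs, and of the kinase Cdk6 and the inhibitor Cdkn1a. Capitals mark the motifs.
Mki67, chr7:135716330-135716629, minus strand: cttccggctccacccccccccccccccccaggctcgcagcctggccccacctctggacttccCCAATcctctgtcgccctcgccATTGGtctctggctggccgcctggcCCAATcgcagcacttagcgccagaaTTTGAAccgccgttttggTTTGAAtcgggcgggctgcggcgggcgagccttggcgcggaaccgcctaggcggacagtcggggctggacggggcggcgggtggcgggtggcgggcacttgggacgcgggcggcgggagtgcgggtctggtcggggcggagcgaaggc
Top2a, chr11:99024140-99024439, minus strand: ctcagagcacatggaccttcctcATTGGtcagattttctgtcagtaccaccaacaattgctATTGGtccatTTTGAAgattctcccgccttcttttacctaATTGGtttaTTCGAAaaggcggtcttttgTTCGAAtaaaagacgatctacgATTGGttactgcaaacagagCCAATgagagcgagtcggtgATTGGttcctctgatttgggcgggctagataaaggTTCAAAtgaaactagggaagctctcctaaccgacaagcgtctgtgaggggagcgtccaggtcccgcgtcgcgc
Kif23, chr9:61946750-61947049, minus strand: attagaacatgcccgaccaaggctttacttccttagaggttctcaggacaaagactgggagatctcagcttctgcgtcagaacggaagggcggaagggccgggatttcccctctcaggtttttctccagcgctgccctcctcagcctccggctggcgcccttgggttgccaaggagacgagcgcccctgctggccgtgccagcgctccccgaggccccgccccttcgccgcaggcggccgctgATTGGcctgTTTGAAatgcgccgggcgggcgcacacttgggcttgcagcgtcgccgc
Mcm5, chr8:75109259-75109558, plus strand: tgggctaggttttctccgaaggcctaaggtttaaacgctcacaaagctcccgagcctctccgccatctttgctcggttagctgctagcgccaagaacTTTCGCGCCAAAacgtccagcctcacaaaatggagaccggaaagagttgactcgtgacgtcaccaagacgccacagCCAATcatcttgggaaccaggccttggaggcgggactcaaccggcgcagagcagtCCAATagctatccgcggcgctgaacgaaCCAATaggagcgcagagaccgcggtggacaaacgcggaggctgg
Cdk6, chr5:3343643-3343942, plus strand: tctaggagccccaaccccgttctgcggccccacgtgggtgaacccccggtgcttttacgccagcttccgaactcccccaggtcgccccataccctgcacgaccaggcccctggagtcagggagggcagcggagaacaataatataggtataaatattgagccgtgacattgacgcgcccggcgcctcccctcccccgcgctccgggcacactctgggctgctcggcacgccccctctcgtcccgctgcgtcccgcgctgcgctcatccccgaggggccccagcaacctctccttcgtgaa
Cdkn1a, chr17:29093519-29093818, plus strand: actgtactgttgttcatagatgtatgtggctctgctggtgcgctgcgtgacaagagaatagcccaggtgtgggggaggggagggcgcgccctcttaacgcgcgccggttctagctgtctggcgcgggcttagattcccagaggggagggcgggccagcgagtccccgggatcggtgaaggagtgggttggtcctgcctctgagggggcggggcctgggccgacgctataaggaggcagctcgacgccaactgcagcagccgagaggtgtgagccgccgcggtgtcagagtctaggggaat
Mki67, Top2a and Kif23 thus show CHR elements beside CCAAT boxes, and Mcm5 an overlapping pair of E2F sites. The Cdk6 window and the printed, more downstream of the 2 Cdkn1a windows hold no capitals, which says only that these letters are not there.

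Pcna and Cdkn1b stood at the top of the levels and mitotic genes near the bottom. Levels between genes are given as CPM per kilobase of exon, with merged exons of GENCODE M21 (GRCm38). Pcna, the sliding clamp of DNA polymerase, had 131 ± 25.2 CPM per kilobase in Nfkb2-/- Tregs and 126 ± 60.8 in wild type Tregs (SD, n = 3 each, as for the levels that follow). Cdkn1b, which encodes the inhibitor p27, had 77.5 ± 14.7 CPM per kilobase in Nfkb2-/- Tregs and 91.7 ± 14.7 in wild type Tregs. Among mitotic genes Stmn1, a microtubule destabiliser, led with 9.77 ± 2.68 CPM per kilobase in Nfkb2-/- Tregs and 12.4 ± 3.81 in wild type Tregs, and Cenpf, a kinetochore protein, was lowest with 0.255 ± 0.0833 in Nfkb2-/- and 0.232 ± 0.0724 in wild type. The mitotic genes thus all lay below Pcna and Cdkn1b. Of the D-type cyclins, Ccnd2 had 25.7 ± 1.52 CPM per kilobase in Nfkb2-/- Tregs and 22.9 ± 4.62 in wild type Tregs. Ccnd3 followed with 7.95 ± 1.01 CPM per kilobase in Nfkb2-/- Tregs and 9.83 ± 0.732 in wild type Tregs, and Ccnd1 was far lower with 0.484 ± 0.114 in Nfkb2-/- and 0.325 ± 0.229 in wild type. Ccnd1 rested on 21 to 40 counts per library in Nfkb2-/- Tregs and 12 to 35 in wild type Tregs, and 23.4% of its exon bases overlap a gene on the other strand, which unstranded counts cannot separate. Cdkn2a, whose products p16INK4a and p19ARF these counts cannot tell apart, had 11 to 14 counts in Nfkb2-/- libraries and 3 to 17 in wild type libraries.

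**Figure D1:**
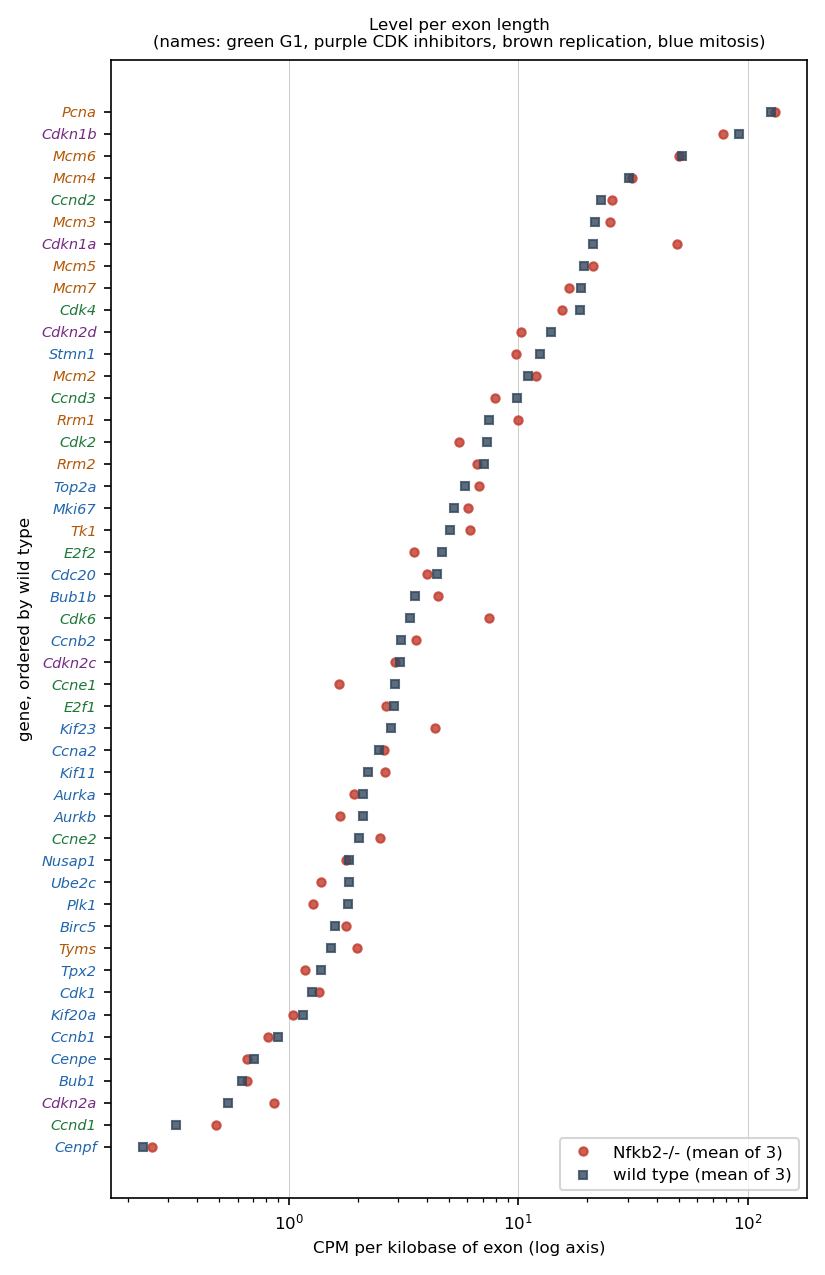
Mean level of each of the 48 genes in CPM per kilobase of exon on a log axis, for Nfkb2-/- and wild type Tregs (n = 3 libraries each). Pcna and Cdkn1b lead, and the 22 genes of mitosis lie at or below the 12.4 ± 3.81 CPM per kilobase (SD) of Stmn1 in wild type.

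The genotype comparison asked whether Tregs without Nfkb2 carried more or less RNA of the cell cycle. By edgeR's quasi-likelihood test, 0 of the 48 genes passed as higher and 0 as lower in Nfkb2-/- Tregs (adjusted p under 0.05 over 13347 genes), where 1.42% of all genes tested passed, 1.01% higher and 0.405% lower. At an unadjusted p under 0.05, 3 were higher and 3 lower, against 13.6% of all genes tested, 7.25% higher and 6.35% lower. limma-voom called 0 of the 48, where it called 1.39% of all genes. DESeq2 called 3 higher and 0 lower, where it called 3.21% of all genes higher and 1.89% lower. Between genotypes, CPM ranges were apart for 9 of the 48 genes (18.8%), a share near the 20.6% of all genes tested. Of these 9, 4 were higher and 5 lower in Nfkb2-/- Tregs, against 10.7% and 9.9% of all genes tested. The median log2 fold change (Nfkb2-/- over wild type) was 0.05 over the 48 genes and -0.03 over all genes tested. The median of the 48 ran from -0.11 without wild type replicate 1 to 0.19 without wild type replicate 2. For 32 of the 48 genes the 95% interval of the fold change lay within 2-fold in either direction.

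**Figure D2:**
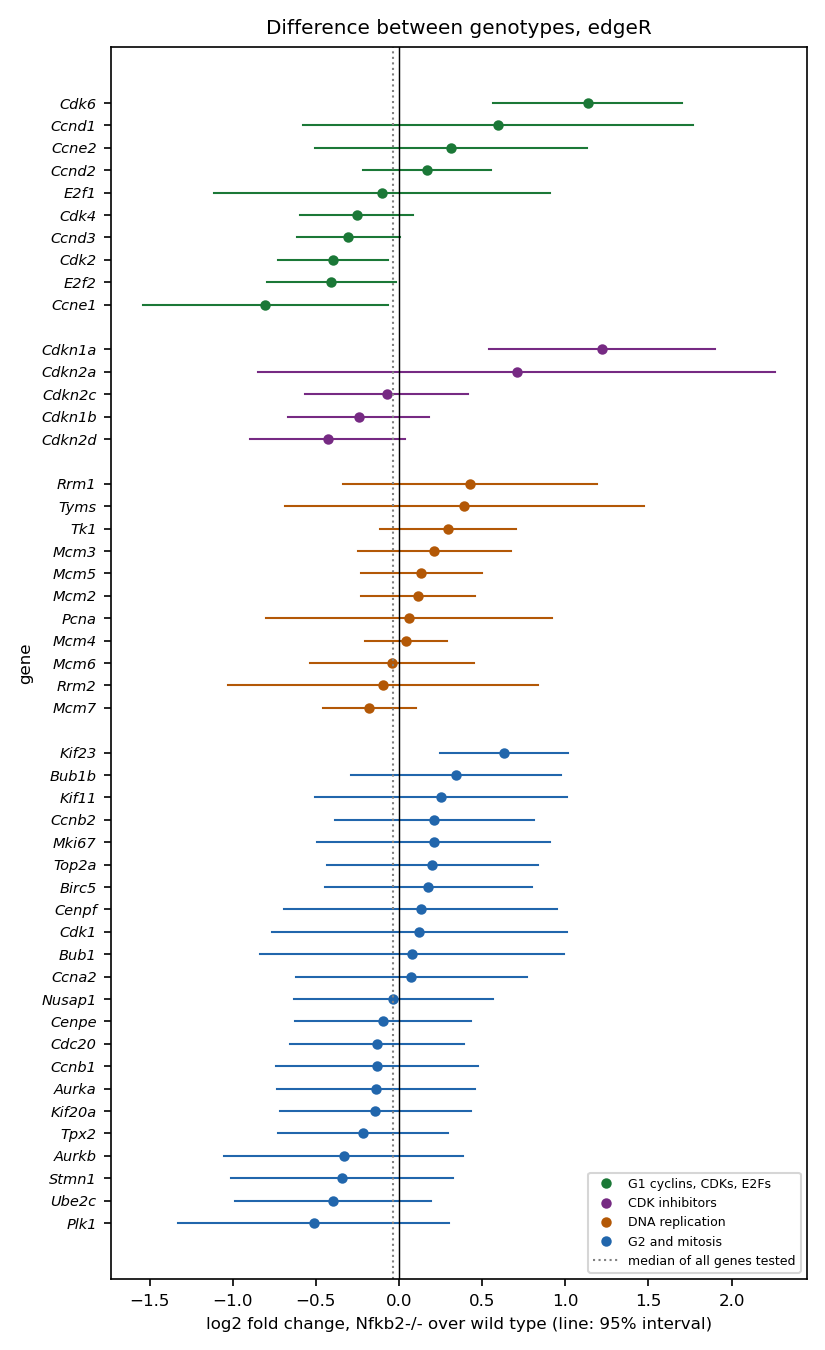
Log2 fold change of each gene, Nfkb2-/- over wild type, with its 95% interval from the edgeR fit (n = 3 libraries each), grouped by role. The intervals of Cdk6, Cdkn1a and Kif23 lie wholly above 0 and those of Cdk2, Ccne1 and E2f2 wholly below, and none of the 48 passed the adjusted threshold.

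Cdk6, the kinase that D-type cyclins activate in G1, had the smallest p of the 48 genes and was higher in every Nfkb2-/- library. Nfkb2-/- replicates 1, 2 and 3 held 105, 103 and 104 CPM, and wild type replicates 1, 2 and 3 held 30.1, 63.6 and 48.5 CPM. The Nfkb2-/- libraries were nearly equal while the wild type libraries spread widely, and the groups did not overlap. The log2 fold change was 1.14 (SE 0.245, 95% interval 0.57 to 1.70, 2.20-fold), with an edgeR adjusted p of 0.0780. Without wild type replicate 1, the lowest library, the log2 fold change was 0.89 and the edgeR adjusted p 0.000842, where 4.6% of all genes passed as higher. Cdk6 passed also by DESeq2 (adjusted p = 0.00176) and without a count filter (edgeR adjusted p = 0.0132, 1.08% of all genes higher), while the replicate block gave 0.0546. The gene lies at chr5:3341485-3531008 (GRCm38), and 2.63% of its exon bases overlap an antisense gene.

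The other G1 genes of small p were lower in Nfkb2-/- Tregs and, like Cdk6, did not pass in the reported fit. Ccne1, the E-type cyclin of S phase entry, was at 2.48, 5.63 and 5.13 CPM in Nfkb2-/- Tregs and at 7.01, 7.99 and 8.23 CPM in wild type Tregs (log2 fold change -0.80, SE 0.318, edgeR adjusted p = 0.323). Its partner kinase Cdk2 was at 30.8, 37.9 and 34.6 CPM in Nfkb2-/- Tregs and at 44.7, 50.3 and 41.2 CPM in wild type Tregs (-0.40, SE 0.144, edgeR adjusted p = 0.275). E2f2, an activating E2F factor, was at 16.1, 18.7 and 16.5 CPM in Nfkb2-/- Tregs and at 26.4, 21.6 and 20.0 CPM in wild type Tregs (-0.41, SE 0.168, edgeR adjusted p = 0.344). None of these 3 overlapped between genotypes, every Nfkb2-/- library being below every wild type library, as for 9.9% of all genes tested. They were named for their small p, so the lack of overlap is not a separate result. Ccnd3, a D-type cyclin of lymphocytes, did not overlap either, with 64.3 to 80.0 CPM in Nfkb2-/- Tregs and 82.3 to 93.7 CPM in wild type Tregs. Ccnd2, the D-type cyclin of the highest level, averaged 242 ± 14.3 CPM in Nfkb2-/- Tregs and 215 ± 43.5 CPM in wild type Tregs (SD, n = 3 each), with a 95% interval of the log2 fold change of -0.22 to 0.56. Cdk4, the sister kinase of Cdk6, averaged 50.3 ± 2.40 CPM in Nfkb2-/- Tregs and 60.1 ± 9.62 CPM in wild type Tregs, and 19.7% of its exon bases overlap a gene on the other strand. The 95% interval of Cdk4, -0.60 to 0.08, did not reach that of Cdk6. Ccnd2 and Cdk4 overlapped between genotypes, as did Ccnd1, Ccne2 and E2f1.

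Among the kinase inhibitors, Cdkn1a had the smallest p. It encodes p21, which stops cells in G1 and is a classic target of p53. The Nfkb2-/- libraries, in the order of their replicate numbers, held 156, 182 and 185 CPM and the wild type libraries 42.3, 77.4 and 105 CPM. The lowest Nfkb2-/- library lay above the highest wild type library, and wild type replicate 1 was again the lowest. The log2 fold change was 1.22 (SE 0.294, 95% interval 0.54 to 1.90, 2.33-fold), with an edgeR adjusted p of 0.105. With the replicate number as a block the edgeR adjusted p was 0.0405, where 1.47% of all genes passed as higher. Without wild type replicate 1 the log2 fold change was 0.93 with an edgeR adjusted p of 0.00139, and DESeq2 gave an adjusted p of 0.00420. Cdkn1a lies at chr17:29090976-29100727 (GRCm38), and an annotated transcript on the other strand overlaps 7.68% of its exon bases.

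Like Cdkn1a, the other inhibitors did not pass in the reported fit. Cdkn1b, whose product p27 holds resting T cells out of division, was at 430.0, 313 and 315 CPM in Nfkb2-/- Tregs and at 491, 399.7 and 361 CPM in wild type Tregs (log2 fold change -0.24, 95% interval -0.67 to 0.18, edgeR adjusted p = 0.649). Cdkn2d, which encodes p19INK4d, was at 19.9, 13.6 and 15.2 CPM in Nfkb2-/- Tregs and at 19.5, 20.4 and 25.7 CPM in wild type Tregs (-0.43, 95% interval -0.89 to 0.03, edgeR adjusted p = 0.408). Both overlapped between genotypes, Cdkn2d only through Nfkb2-/- replicate 1. Cdkn2a was at 0.910, 0.985 and 1.14 CPM in Nfkb2-/- Tregs and at 0.162, 1.35 and 0.420 CPM in wild type Tregs (0.71, 95% interval -0.85 to 2.26, edgeR adjusted p = 0.728). Cdkn2c, which encodes p18INK4c, averaged 7.81 ± 1.37 CPM in Nfkb2-/- Tregs and 8.24 ± 0.691 CPM in wild type Tregs (SD, n = 3 each). Both overlapped as well, and the interval of Cdkn2a was wide. The log2 fold change of Cdkn2a was 0.18 when wild type replicate 1 was left out and 1.85 when replicate 2 of that genotype was. Together the 5 inhibitors summed to 615, 519 and 522 CPM in Nfkb2-/- Tregs and to 561, 508 and 501 CPM in wild type Tregs, most of it Cdkn1b and Cdkn1a.

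**Figure D3:**
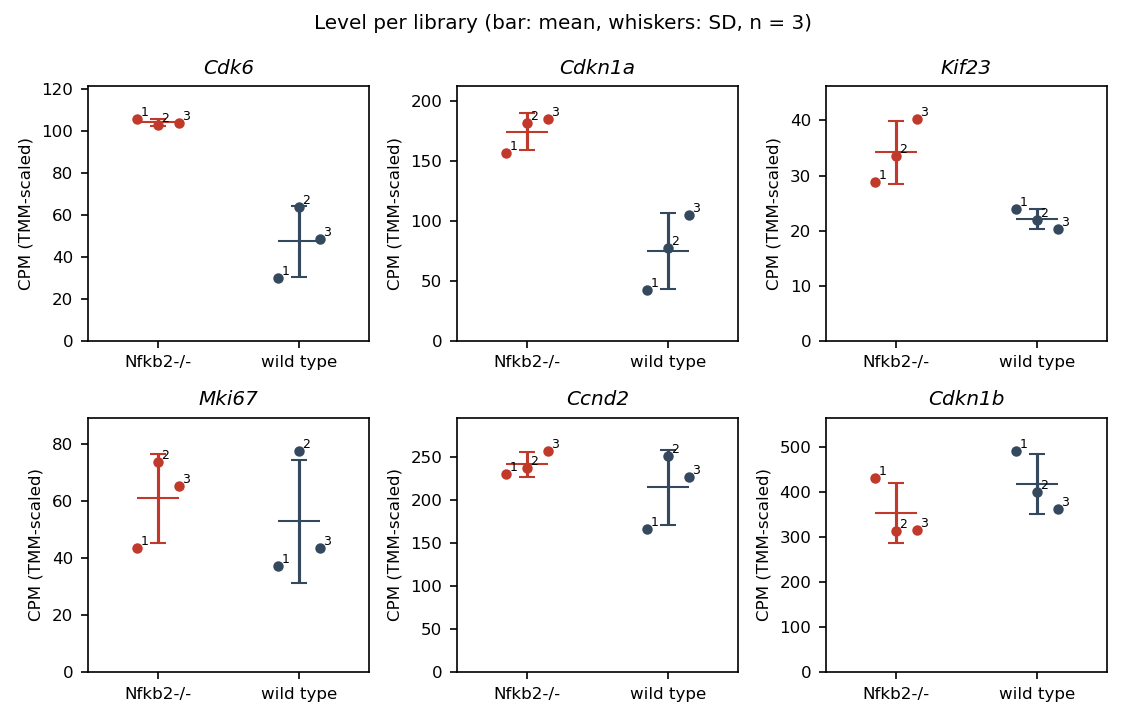
CPM per library of Cdk6, Cdkn1a, Kif23, Mki67, Ccnd2 and Cdkn1b, with Nfkb2-/- on the left and wild type on the right, replicate numbers beside the points and the mean with SD (n = 3). The groups do not overlap for Cdk6, Cdkn1a and Kif23 and overlap for the proliferation marker Mki67, for Ccnd2 and for Cdkn1b.

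The 11 replication genes summed to 982, 1297 and 1227 CPM in Nfkb2-/- Tregs and to 787, 1301 and 1235 CPM in wild type Tregs, which overlap. Their median log2 fold change was 0.11, and it was -0.01 when wild type replicate 1 was left out and 0.21 when replicate 2 of that genotype was. In the fit of all 6 libraries, all 11 had an absolute log2 fold change under 0.5. The 6 subunits of the MCM helicase, which opens DNA ahead of the fork, ranged from Mcm7 to Mcm3 in log2 fold change. Mcm7 was at 66.4, 79.7 and 74.5 CPM in Nfkb2-/- Tregs and at 81.6, 89.1 and 79.1 CPM in wild type Tregs (-0.18, SE 0.122, edgeR adjusted p = 0.602). Mcm3 was at 75.4, 100.4 and 106 CPM in Nfkb2-/- Tregs and at 62.7, 98.7 and 81.6 CPM in wild type Tregs (0.21, SE 0.199, edgeR adjusted p = 0.722). Both overlapped between genotypes. Mcm4 had the narrowest interval of the 48 genes, with a log2 fold change of 0.04 and a 95% interval of -0.20 to 0.29. Mcm6 lies 9.70 Mb from Ptprc, the CD45 gene by which donors are often marked, and had a log2 fold change of -0.04. Kif11, of the mitotic genes, lies 8.88 Mb from Nfkb2 on chromosome 19 and had a log2 fold change of 0.25.

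Genes of nucleotide supply for DNA synthesis also missed the test. Tk1, thymidine kinase, was at 31.3, 33.1 and 31.9 CPM in Nfkb2-/- Tregs and at 29.2, 29.3 and 20.0 CPM in wild type Tregs, without overlap (log2 fold change 0.29, SE 0.177, edgeR adjusted p = 0.549). Rrm1, the large subunit of ribonucleotide reductase, was at 84.5, 123 and 122 CPM in Nfkb2-/- Tregs and at 41.7, 102 and 102 CPM in wild type Tregs (0.43, SE 0.330, edgeR adjusted p = 0.656), and its log2 fold change was 0.11 without wild type replicate 1. Its small subunit Rrm2 was at 11.9, 21.7 and 21.4 CPM in Nfkb2-/- Tregs and at 9.44, 28.8 and 20.8 CPM in wild type Tregs. In Rrm1 and Rrm2, as in Tyms, thymidylate synthase, replicate 1 was the lowest library of both genotypes. Pcna showed it too, with 249, 367 and 330.2 CPM in Nfkb2-/- Tregs and 136, 362 and 409 CPM in wild type Tregs, and its 95% interval of the log2 fold change was -0.80 to 0.92. The log2 fold change of Pcna was 0.06, and -0.29 without wild type replicate 1.

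The 22 genes of G2 and mitosis summed to 229, 341 and 328 CPM in Nfkb2-/- Tregs and to 215, 354 and 252 CPM in wild type Tregs, with a median log2 fold change of 0.02 and 11 of 22 above 0. This median turned with single libraries: it was 0.19 without Nfkb2-/- replicate 1 and 0.16 without wild type replicate 2, but -0.10, -0.08, -0.12 and -0.07 without Nfkb2-/- replicate 2, Nfkb2-/- replicate 3, wild type replicate 1 and wild type replicate 3. Kif23, a kinesin of the central spindle that acts in cytokinesis, had the smallest p among them. Its level was 28.8, 33.6 and 40.2 CPM over the Nfkb2-/- libraries and 23.9, 22.0 and 20.3 CPM over the wild type libraries. Every Nfkb2-/- library was above every wild type library, and the wild type libraries were close together. The log2 fold change was 0.63 (SE 0.167, 95% interval 0.25 to 1.02, 1.55-fold), with an edgeR adjusted p of 0.132. Kif23 passed without wild type replicate 1 (edgeR adjusted p = 0.0142) and by DESeq2 (adjusted p = 0.0266). In these fits 4.6% and 3.21% of all genes passed as higher. Kif23 lies at chr9:61915905-61946774 (GRCm38).

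Other mitotic genes gave values on both sides of 0. Ube2c, which works with the anaphase-promoting complex, was at 2.81, 3.87 and 4.15 CPM in Nfkb2-/- Tregs and at 4.75, 4.91 and 4.62 CPM in wild type Tregs (log2 fold change -0.40, SE 0.255, edgeR adjusted p = 0.581). The groups did not overlap, and 22.8% of the exon bases of Ube2c lie over a gene on the other strand. Plk1, a mitotic kinase, was at 2.40, 3.38 and 2.69 CPM in Nfkb2-/- Tregs and at 5.72, 2.61 and 3.70 CPM in wild type Tregs (-0.51, SE 0.352, edgeR adjusted p = 0.607), its highest level being in wild type replicate 1. Bub1b, of the spindle checkpoint, was at 13.9, 24.8 and 18.7 CPM in Nfkb2-/- Tregs and at 11.1, 18.9 and 15.5 CPM in wild type Tregs (0.34, SE 0.273, edgeR adjusted p = 0.669). Plk1 and Bub1b overlapped between genotypes, and so did the usual markers of dividing cells. Mki67, which encodes Ki-67, was at 43.7, 73.8 and 65.2 CPM in Nfkb2-/- Tregs and at 37.3, 77.5 and 43.6 CPM in wild type Tregs (log2 fold change 0.21, 95% interval -0.49 to 0.91, edgeR adjusted p = 0.837). Top2a, the topoisomerase that untangles chromosomes, was at 47.2, 66.4 and 68.5 CPM in Nfkb2-/- Tregs and at 35.6, 74.7 and 48.5 CPM in wild type Tregs (0.20, 95% interval -0.43 to 0.83, edgeR adjusted p = 0.824). Without wild type replicate 1 the log2 fold change was 0.01 for Mki67 and -0.02 for Top2a. For both, libraries of one genotype lay farther apart than the genotype means.

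Replication and mitotic genes often followed one order of libraries within a genotype. Among Nfkb2-/- libraries, replicate 1 was the lowest for 20 of 22 mitotic and 9 of 11 replication genes, against 40.2% of all genes tested. Among wild type libraries, replicate 2 was the highest for 17 of 22 mitotic and 9 of 11 replication genes, against 25.2% of all genes tested. Wild type replicate 1 was the lowest for 13 of 22 and 8 of 11, against 42.2%. The G1 genes showed much of the same order: Nfkb2-/- replicate 1 was the lowest for 7 of 10, wild type replicate 2 the highest for 6 of 10 and wild type replicate 1 the lowest for 7 of 10. Over the 6 libraries the mean correlation between pairs of genes in log2(CPM + 0.5) was 0.435 among mitotic genes, 0.413 among replication genes, 0.143 among G1 genes and -0.116 among inhibitors, and 0.00046 among all genes tested. These correlations describe 6 libraries and share each library's scaling. With deviations taken within genotype the mean was 0.538 among mitotic genes and 0.437 among replication genes. The median mitotic gene deviated from its genotype mean by -0.31 in Nfkb2-/- replicate 1 and by 0.27 in wild type replicate 2 on the log2 scale.

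**Figure D4:**
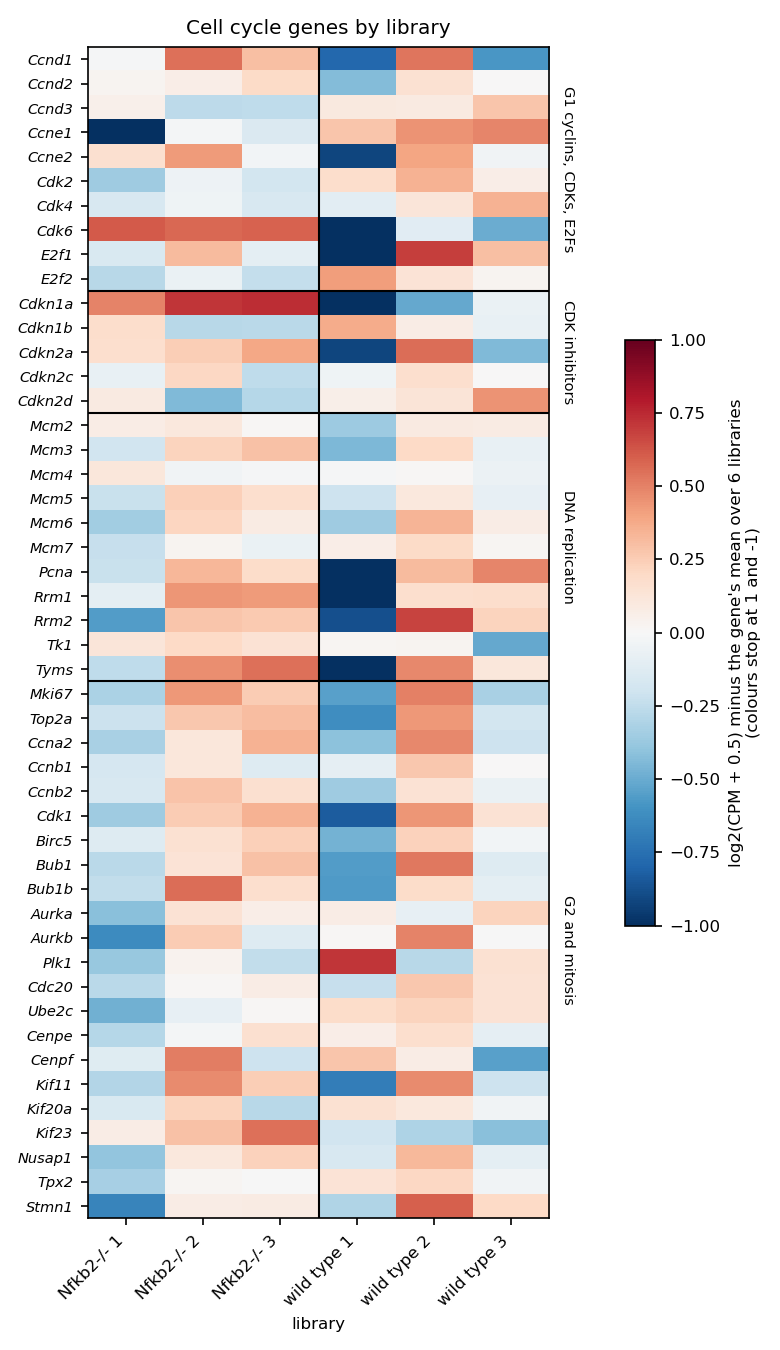
Heat map of the 48 genes by library on a log2 CPM scale relative to each gene's mean over 6 libraries, with Nfkb2-/- left of wild type and rows grouped by role. Nfkb2-/- replicate 1 is low and wild type replicate 2 high over most replication and mitotic rows, while Cdk6 and Cdkn1a are high in all Nfkb2-/- libraries.

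Markers of other cells differed between the libraries too. The 12 B cell markers, all of them detected in every library, summed to 58.9, 64.6 and 84.3 CPM in Nfkb2-/- replicates 1, 2 and 3, and to 103, 316 and 239.9 CPM in the wild type ones. Wild type replicate 2, the highest library for mitotic genes, thus held the most B cell marker RNA, while the Nfkb2-/- libraries were all below wild type. The 9 markers of germinal centre B and plasma cells summed to 307, 320.3 and 341 CPM in Nfkb2-/- Tregs and to 306, 403 and 402 CPM in wild type Tregs. Of these, Mzb1, a chaperone of plasma cells, had 0 to 4 counts per library. Jchain, in contrast, was at 9.18, 14.4 and 15.4 CPM in Nfkb2-/- Tregs and at 10.8, 68.0 and 85.4 CPM in wild type Tregs. Prdm1 went the other way, averaging 22.6 ± 3.43 CPM in Nfkb2-/- Tregs and 14.8 ± 4.86 CPM in wild type Tregs (SD, n = 3 each). Erythroid markers summed to 24.1 to 45.2 CPM in Nfkb2-/- Tregs and to 35.3 to 61.8 CPM in wild type Tregs. Myeloid markers summed to 67.5 to 90.2 CPM in Nfkb2-/- and 53.8 to 116 CPM in wild type, and CD8 and NK cell markers to 20.4 to 26.5 CPM in Nfkb2-/- and 15.8 to 41.5 CPM in wild type, all 3 sums overlapping. The part of these cells in the library order was not tested.

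**Figure D5:**
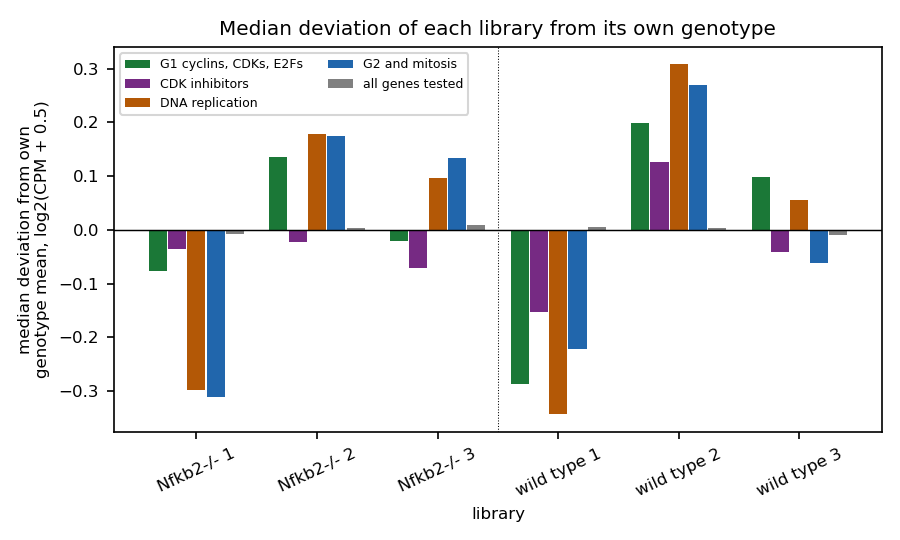
Median deviation of the genes of each role from the mean of their own genotype, on the log2 CPM scale, for each library, Nfkb2-/- libraries left of wild type. Replication and mitotic genes are below 0 in replicate 1 of both genotypes and above 0 in replicate 2 of both, while the median of all genes tested stays near 0.

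A wider list of cell cycle genes gave the same count. Of 109 further symbols, 108 were found and 106 tested, and 0 passed in either direction by edgeR (2 higher and 6 lower at an unadjusted p under 0.05, against 7.25% and 6.35% of all genes tested), with a median log2 fold change of -0.02. DESeq2 called 1 higher and 1 lower, against 3.21% and 1.89% of all genes. Lin54, the DNA-binding subunit of the MuvB complex that reads the CHR element, was at 93.7, 130.2 and 109.9 CPM in Nfkb2-/- Tregs and at 34.9, 66.5 and 60.2 CPM in wild type Tregs, without overlap. Its log2 fold change was 1.05 (SE 0.246, edgeR adjusted p = 0.1001). Lin54 passed with the replicate block (edgeR adjusted p = 0.0286), without wild type replicate 1 (0.00294) and by DESeq2 (0.00528). In these fits 1.47%, 4.6% and 3.21% of all genes passed as higher. Mnat1, an assembly factor of the CDK-activating kinase, averaged 12.1 ± 1.75 CPM in Nfkb2-/- Tregs and 19.6 ± 1.85 CPM in wild type Tregs (SD, n = 3 each). Its log2 fold change was -0.69 (edgeR adjusted p = 0.121, and 0.0178 without wild type replicate 1, where 4.44% of all genes passed as lower). Chaf1b, a histone chaperone subunit, and Pold1, the catalytic subunit of DNA polymerase delta, had log2 fold changes of -0.57 and -0.34 (edgeR adjusted p = 0.228 and 0.360). Smc4, a condensin subunit, averaged 474 ± 45.9 CPM in Nfkb2-/- Tregs and 731 ± 191 CPM in wild type Tregs (log2 fold change -0.63, edgeR adjusted p = 0.219). The 44 mitotic factors of the list, Smc4 among them, summed to 1246, 1207 and 1214 CPM in Nfkb2-/- Tregs. In wild type Tregs they summed to 1654, 1336 and 1321 CPM, without overlap. The median log2 fold change of the 43 tested was 0.01. Sums of the wider lists of G1 control and of replication factors overlapped between genotypes. Plk4, the kinase of centriole duplication, had a log2 fold change of 0.37 (edgeR adjusted p = 0.339).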

How the data were processed

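The authors deposited whole-number counts of reads per Ensembl gene for 6 libraries, not normalized. Per the submitters' processing notes, FastQC, HISAT2, HTSeq and DESeq2 were used on build GRCm38; versions and the counting mode are not stated in what was used here, and the kit kept no strand information, per the labels' protocols. Of 55573 genes, 55480 matched GENCODE M21, which gave symbols, positions and merged exon lengths. The 48 genes, their roles and all lists were chosen with earlier results of these data known.

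From the counts, edgeR 4.0.16 (R 4.3.3) was run with filterByExpr, TMM scaling and a robust quasi-likelihood fit of genotype alone, adjusting by Benjamini-Hochberg over 13347 genes at 0.05. The SE is the absolute log2 fold change over the root of F. The common biological coefficient of variation was 0.228. On simulated data this edgeR fit mostly missed small differences. It detected 2 of 49 genes set 1.5-fold apart and 19 of 50 set 2-fold apart. For larger differences the numbers were 45 of 50 (4-fold) and 48 of 50 (8-fold). Of its 118 calls, 4 were false. A gene that did not pass may therefore still differ, most easily by 2-fold or less. Larger differences were sometimes missed too, so not passing sets no upper bound. In the reported fit, p-values set the difference between genotypes against the spread between these libraries within a genotype. Full values are given for the 4 genes of smallest p in each role, levels for D-type cyclins and inhibitors, and the 2 genes of smallest p in each wider list; other genes were named for their role or after their values were seen. Same-numbered libraries deviated together (r = 0.364, 0.267 and 0.111, each above 0.1). The replicate numbers, which the labels give in both genotypes, were therefore used as a block in an alternative fit, and the reported fit leaves them out. The third Nfkb2-/- library, however, deviated more closely with wild type replicate 2 (r = 0.251) than with its own number. Deviations within a genotype cancel, so these correlations are not independent of each other. Every pair of libraries differed by more than sampling noise (chi-square over degrees of freedom 5.82 to 106). Alternatives were RLE or upper-quartile scaling, the replicate block, leaving out each library, DESeq2 1.42.0, limma-voom (limma 3.58.1), dropping the count filter, and asking for 1 CPM in at least 3 libraries instead.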

Additional observations from a re-analysis of the deposited data

How the results depend on the processing

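By edgeR, 0 of 48 cell cycle genes passed as higher, and this count was 1 without a count filter (Cdk6), 3 by DESeq2 and 1 with the replicate block (Cdkn1a). With each library left out in turn it ran from 0 to 3, the 3 (Cdk6, Cdkn1a and Kif23) coming without wild type replicate 1. In the wider list the count of higher genes, 0 in the reported edgeR fit, was 1 without a count filter, 1 by DESeq2, 1 with the replicate block and 0 to 1 with a library left out, Lin54 each time. Its count of lower genes was 1 by DESeq2 (Mnat1) and 0 to 2 with a library left out (Mnat1 and Ccng2 without wild type replicate 1). Of all genes, 1.89% passed as lower by DESeq2 and 4.44% without wild type replicate 1. The count of lower genes among the 48 was 0 in all 13 alternatives. The replicate block changed no other call. Over 285 values of the 22 genes named by the rule on p, 0 turned direction, 14 passed the threshold that the reported value had missed, and 271 stayed on the same side. Over all 48 genes, 17 turned direction with at least 1 library left out, 8 of them without wild type replicate 1, and 2 (E2f1 and Rrm2) under another alternative. Without wild type replicate 1 the log2 fold change was -0.02 for Top2a and -0.29 for Pcna. The log2 fold change was 0.89 to 1.40 for Cdk6, 0.93 to 1.54 for Cdkn1a and 0.50 to 0.74 for Kif23 over the alternatives. The adjusted p was 0.000842 to 0.296 for Cdk6, 0.00139 to 0.387 for Cdkn1a and 0.0142 to 0.531 for Kif23 over the same edgeR, DESeq2 and limma-voom fits. The cause was not tested. With the filter of 1 CPM in 3 libraries Cdkn2a was left out. Of the 48 genes, Cdkn2a and Ccnd1 had the fewest counts.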

Other observations

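The complexes named here were chosen after their values were seen. In the MuvB complex, which with pocket proteins and E2F4 represses cell cycle genes in resting cells, Lin54 differed in value from its partners. Lin9 averaged 16.7 ± 1.03 CPM in Nfkb2-/- Tregs and 16.1 ± 1.36 CPM in wild type Tregs, and Lin52 averaged 14.9 ± 0.765 CPM in Nfkb2-/- Tregs and 16.5 ± 1.55 CPM in wild type Tregs (SD, n = 3 each). Lin37 was at 17.5 to 20.9 CPM in Nfkb2-/- Tregs and at 20.0 to 26.0 CPM in wild type Tregs. All 3 overlapped between genotypes. The 95% intervals of their log2 fold changes were -0.30 to 0.42 for Lin9, -0.52 to 0.21 for Lin52 and -0.58 to 0.20 for Lin37, against 0.48 to 1.62 for Lin54. The pocket protein genes Rb1, Rbl1 and Rbl2 had log2 fold changes of -0.21, -0.37 and 0.20 and overlapped between genotypes. E2f4 did not overlap, at 120.1, 129 and 134 CPM in Nfkb2-/- Tregs and at 115, 117 and 110.4 CPM in wild type Tregs (log2 fold change 0.16, edgeR adjusted p = 0.592).

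The 3 genes of the CDK-activating kinase, which phosphorylates the cell cycle kinases, did not overlap between genotypes, as was the case for 20.6% of all genes tested, and none passed in the reported edgeR fit. Cdk7, the kinase, was at 23.7, 23.7 and 27.6 CPM in Nfkb2-/- Tregs and at 23.2, 22.9 and 22.7 CPM in wild type Tregs. Its cyclin Ccnh was at 14.9, 14.1 and 14.8 CPM in Nfkb2-/- Tregs and at 19.0, 20.0 and 18.1 CPM in wild type Tregs, and Mnat1 at 11.7, 10.6 and 14.0 CPM in Nfkb2-/- Tregs and at 18.7, 18.3 and 21.7 CPM in wild type Tregs. The kinase was thus slightly higher and its cyclin and assembly factor lower in Nfkb2-/- Tregs, with log2 fold changes of 0.13, -0.38 and -0.69 (edgeR adjusted p = 0.775, 0.298 and 0.121).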
